A study of Homo sapiens with 16 samples.

Results

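Complex I, the NADH dehydrogenase of mitochondria, is built from proteins of the nuclear and the mitochondrial genome, and the nuclear genes of its subunits and assembly factors were followed here. Members were all genes of the deposited table whose symbol is NDUFA, NDUFAB, NDUFB, NDUFC, NDUFS, NDUFV or NDUFAF with a number, and 44 of 19898 genes met this rule. They were 7 core subunits, 28 accessory subunits, 8 assembly factors (NDUFAF1 to NDUFAF8) and NDUFA4, which was named as a complex I subunit and is now placed in cytochrome c oxidase, complex IV. The subunits NDUFA3 and NDUFA6 were not analysed here. All 44 members passed the filter on low values. The rule uses gene symbols only, though the gene set was picked with earlier results of these data known.

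Complex I takes electrons from NADH and passes them along iron-sulfur clusters to ubiquinone, and pumps protons across the inner mitochondrial membrane. The N module binds NADH, the Q module reduces ubiquinone, and the proximal and distal membrane arms carry the proton pumps, whose core proteins are the mitochondrially encoded ND subunits. Core subunits are conserved from bacteria and carry the catalytic centres, accessory subunits surround and stabilise them, and assembly factors help to build or modify the complex without staying in it. The 1-methyl-4-phenylpyridinium ion (MPP) is taken up by catecholamine neurons and inhibits complex I, and is used as a toxin model of Parkinson's disease.

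Poly-A-selected RNA libraries were made from SH-SY5Y cells, an established line from a human neuroblastoma. All groups were differentiated for 15 days to what the labels call dopamine-like neurons. Cells grown as 3D cultures and given 1 mM MPP for 48 h from day 13 are called MPP 3D, and cells on flat dishes given the same treatment are called MPP 2D. Untreated 3D and untreated 2D cultures received no MPP. Each group held 4 libraries, and no label states whether the 4 are separate cultures. The tests therefore weigh differences against the spread of these samples alone, which may be technical. Cells in 2D were detached with an enzyme solution and pelleted, whereas 3D scaffolds went whole into tubes, so culture and handling cannot be told apart in any contrast of 3D with 2D.

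Library depth was 24589435 to 46359070 reads, of which the 44 members took 0.163% to 0.201%. The mitochondrially encoded mRNAs took 1.24% ± 0.207 of reads in MPP 3D, 0.874% ± 0.0754 in MPP 2D, 4.47% ± 1.61 in untreated 3D and 9.62% ± 1.65 in untreated 2D (SD, n = 4 each). Of 6 catecholamine neuron markers 5 were detected in every group (TH, DDC, SLC18A2, DBH and PHOX2A), with summed levels of 135925 to 169958 in MPP 3D, 188446 to 203078 in MPP 2D, 161460 to 191330 in untreated 3D and 191962 to 216269 in untreated 2D. DBH and PHOX2A made up 86.9% to 98.0% of these sums, and the other 3 markers went another way between cultures. TH, DDC and SLC18A2 were higher in untreated 3D than in untreated 2D and DBH and PHOX2A were lower, with a median log2 change of 1.68 over the 5. With MPP in 3D, SLC18A2 and PHOX2A rose and TH, DDC and DBH fell, and DDC averaged 2851 in MPP 3D and 2301 in MPP 2D, against 14143 in untreated 3D and 2745 in untreated 2D. The dopamine specification genes NR4A2, LMX1B and PITX3 came to summed levels of only 54.9 to 196 in any library, and SLC6A3, LMX1A, FOXA2 and EN1 were not analysed here. The glial factor SOX10 averaged 1.82 or less in every group and 0 in untreated 3D, and 5 mesenchymal markers (FN1, VIM, CD44, COL1A1 and YAP1) summed to 6666 to 7540.3 in MPP 3D, 10889.7 to 11997 in MPP 2D, 8613 to 9188 in untreated 3D and 10028 to 11199 in untreated 2D. Of these 5, 1 was called higher and 3 lower in untreated 3D than in untreated 2D. COL1A1 went against the sum, at 3346 in untreated 3D and 2854 in untreated 2D. The 5 pan-neuronal markers MAP2, STMN2, ELAVL4, TUBB3 and SYP summed to 52061 to 62408 in MPP 3D and 101672 to 117578 in MPP 2D, against 56496 to 61286 in untreated 3D and 94345 to 106124 in untreated 2D. The sums hide opposite changes with MPP in 3D, where 1 of the 5 was called higher and 3 lower. STMN2 averaged 24293 in MPP 3D and 16426 in untreated 3D, whereas TUBB3 averaged 13408 and 20078 and SYP 8473 and 10649. The part of cell composition in the member values was not tested, and in bulk RNA fewer cells of a type and less RNA per cell cannot be told apart.

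A pair of 3D libraries lay at the ends of their groups in the subunit median, though neither median was marked by the outlier criterion used below. The median deviation of the 35 complex I subunits from their means over 16 libraries (log2 scale) was -0.23 in MPP 3D replicate 1, against -0.083 to 0.050 in the other MPP 3D libraries, and 0.19 in untreated 3D replicate 4, against -0.084 to 0.068 in the other untreated 3D libraries. In the proximal membrane arm MPP 3D replicate 1 lay at -0.39, against -0.11 to 0.042 in the other MPP 3D libraries, and untreated 3D replicate 4 at 0.25, against -0.029 to 0.048 in the other untreated 3D libraries. In the distal membrane arm the same 2 libraries lay at -0.39, against -0.13 to 0.049, and at 0.29, against -0.15 to 0.10. In the Q module the same libraries lay at -0.032 and 0.032. In the N module MPP 3D replicate 1 lay at -0.118, within the -0.124 to 0.235 of the other MPP 3D libraries. Untreated 3D replicate 4 lay there at 0.102, against -0.0386 to -0.00231 in the other untreated 3D libraries. The subunit count and the subunit and module medians with MPP in 3D are given below with and without these libraries.

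**Figure D1:**
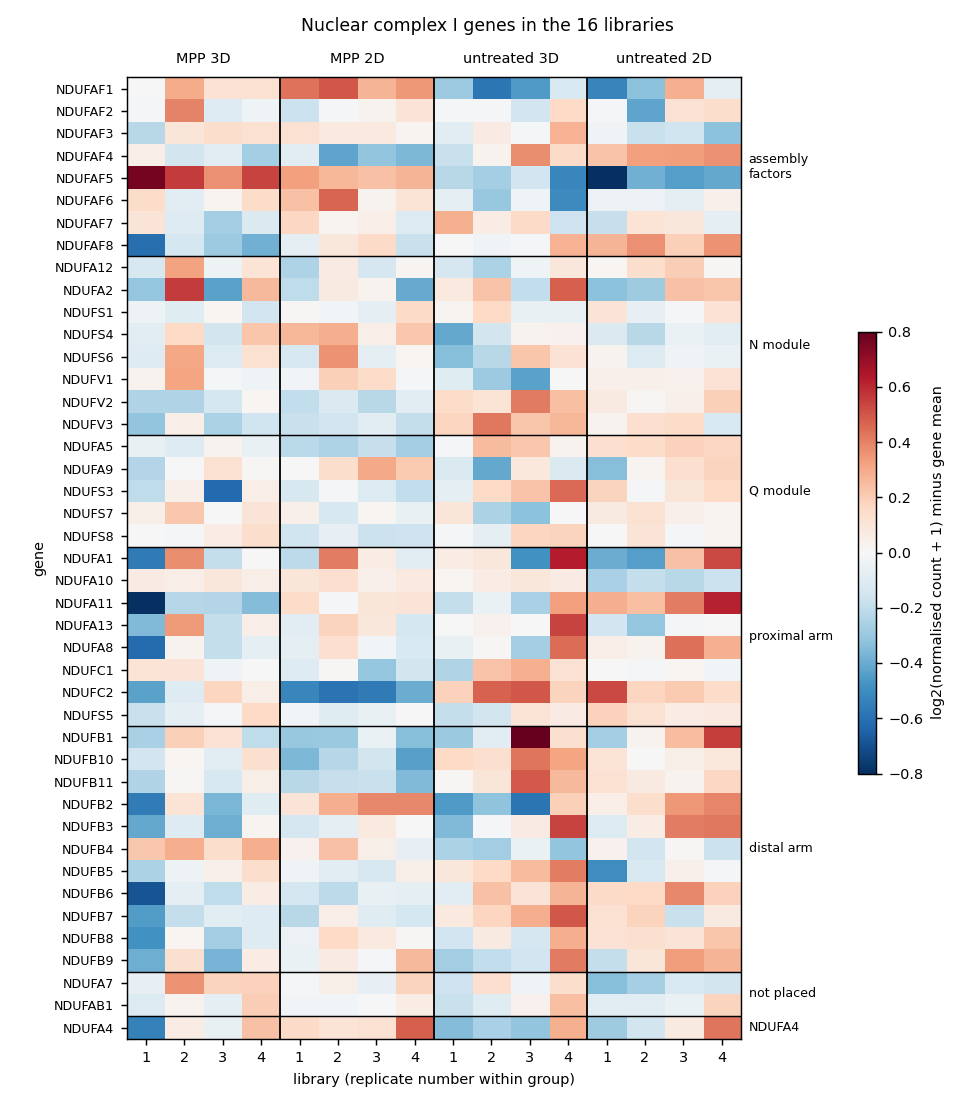
Each row is 1 of 43 member genes and each column a library, grouped as MPP 3D, MPP 2D, untreated 3D and untreated 2D; colour gives log2(normalised count + 1) minus the gene's mean over the 16 libraries, and values beyond the ends of the scale take the end colour. NDUFAF5 is red in all 8 MPP libraries. In the medians of both membrane arms MPP 3D replicate 1 was the lowest and untreated 3D replicate 4 the highest of its group.

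Changes of the nuclear complex I genes were small beside those of all genes tested. No member passed a 2-fold change in any comparison, whereas 9.34% of the 16984 genes tested did so with MPP in 2D, 9.42% with MPP in 3D, 15.0% between untreated 3D and 2D, 10.9% between MPP 3D and MPP 2D and 11.4% in the difference of the MPP effects. These shares include genes of low level, whereas the lowest mean of a member was 288, and 2-fold changes were not counted at a matched level. The test was limma with Benjamini-Hochberg adjustment over all 16984 genes, on log2(normalised count + 1), and a gene was called at an adjusted p under 0.05. By this test 25 members were called in at least 1 of 5 comparisons and 19 in none. The group means of the least variable member, NDUFAB1, the mitochondrial acyl carrier protein, differed by a ratio of 1.02 between the highest and the lowest group, and those of the most variable, NDUFAF5, by 2.13.

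With MPP in 2D, 15 of 44 members were called, 7 higher and 8 lower, beside 34.5% of all genes (17.7% higher and 16.9% lower) and 40.0% of the 14031 genes with a mean of 50 or more, a level that every member reached. With MPP in 3D, 14 members were called, 4 higher and 10 lower, beside 34.6% of all genes (17.0% higher and 17.6% lower) and 39.9% at a mean of 50 or more. Between untreated 3D and 2D, 6 members were called, 3 higher and 3 lower, beside 46.1% of all genes (23.2% higher and 23.0% lower) and 51.1% at a mean of 50 or more. Between MPP 3D and MPP 2D, 9 were called, 4 higher and 5 lower, beside 38.9% (19.0% higher and 19.9% lower) and 44.4%. The MPP effect differed between cultures for 2 members, both lower, beside 15.3% of genes (8.32% lower) and 18.4% at a mean of 50 or more. The members' share was thus near the background for MPP and below it for culture. The 4 values of each group did not overlap for 17 members with MPP in 2D (background 38.8%), 9 with MPP in 3D (27.6%), 5 between untreated 3D and 2D (39.7%) and 5 between MPP 3D and MPP 2D (37.5%).

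**Figure D2:**
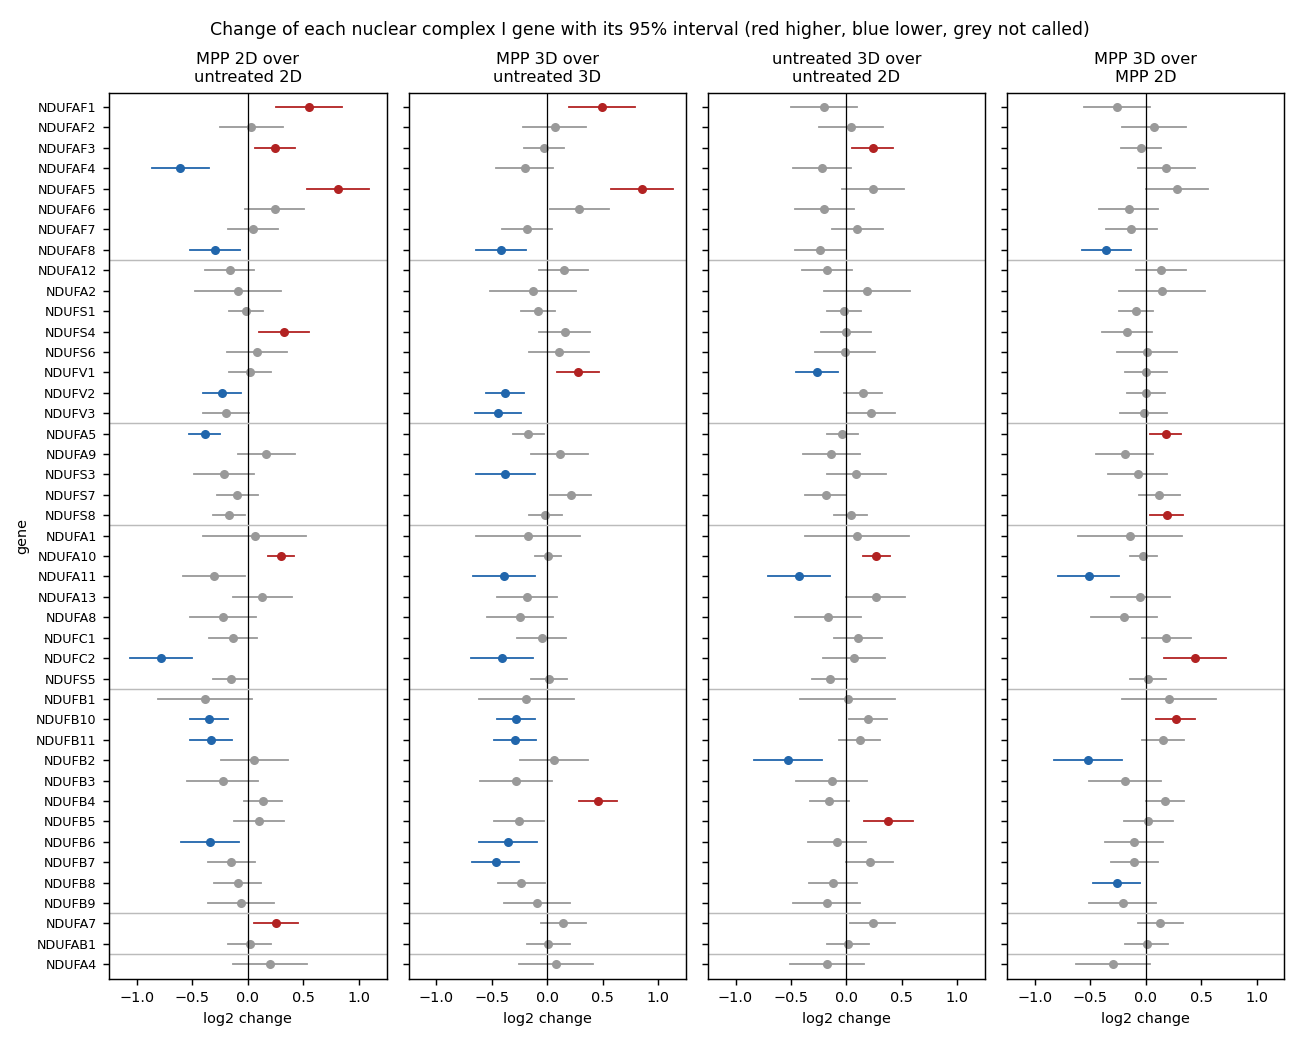
Each panel gives the log2 change of 43 members (points) with its 95% interval from limma (lines) in 1 comparison, the genes ordered as assembly factors, N module, Q module, proximal arm, distal arm, subunits not placed and NDUFA4. Calls are red (higher) or blue (lower), and NDUFAF5 and NDUFAF1 are red in both MPP comparisons, with log2 changes of 0.49 to 0.85.

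Of the 8 assembly factors, 3 rose and 2 fell in MPP 2D relative to untreated 2D, and 2 rose and 1 fell in 3D. The share called in 3D was 37.5%, near that of all genes (34.6%, or 39.9% at a mean of 50 or more). In 2D it was 62.5%, against 34.5% and 40.0%, and as given below not all of these calls held under the alternatives. NDUFAF5 rose most among the 44 members in both cultures, by 1.80-fold in 3D and 1.76-fold in 2D on the log2(normalised count + 1) scale. NDUFAF1 rose in both cultures, NDUFAF8 fell in both, and NDUFAF4 fell in 2D. NDUFAF5 (Entrez gene 79133) hydroxylates an arginine of the core subunit NDUFS7 early in assembly. The 4 libraries of a group are given in replicate order, as normalised counts, here and below. For NDUFAF5 these were 577, 499.8, 437 and 493 in MPP 3D and 426, 409, 399.8 and 410.0 in MPP 2D, against 290.3, 281, 305 and 236 in untreated 3D and 179, 260.1, 249.7 and 255 in untreated 2D. Every MPP library was above every untreated library of either culture. The change was large against the spread between libraries in 3D (limma, log2 0.85, SE 0.135, adjusted p = 3.85e-05) and in 2D (limma, log2 0.81, SE 0.135, adjusted p = 6.94e-05), and the difference between cultures was not called (limma, log2 0.037, 95% interval -0.36 to 0.43, adjusted p = 0.928).

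NDUFAF1 (Entrez gene 51103) belongs to the assembly complex that builds the proximal membrane arm. Its values were 475, 586, 518 and 520.0 in MPP 3D and 644, 675, 577 and 608 in MPP 2D, against 389.6, 319, 348 and 439 in untreated 3D and 330.0, 380.4, 581 and 452 in untreated 2D. The 3D groups did not overlap, and in 2D a single untreated library, replicate 3 at 581, lay above the lowest MPP library. NDUFAF1 rose in 3D (limma, log2 0.49, SE 0.144, adjusted p = 0.0101) and in 2D (limma, log2 0.55, SE 0.144, adjusted p = 0.00488). For NDUFAF5 and NDUFAF1 both calls held under every alternative tried.

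The promoters shown are those of NDUFAF5 and NDUFAF1, which rose in both cultures, and of NDUFAF4, whose fall was called in 2D alone. The sequences are the 250 bases before the RefSeq gene start on build GRCh38.p14, read 5′ to 3′ on the gene's strand: chr20:13784778-13785027 on the plus strand, chr15:41402497-41402746 on the minus strand and chr6:96897892-96898141 on the minus strand. Capitals mark matches, on either strand, to the motif letters searched: GCGCA and GCGC with any base between them for NRF1, CCGGAAG for ETS factors such as GABPA, ATGGCGG for YY1, TGATGNAA for ATF4 with a C/EBP partner, and ACGTG for hypoxia-inducible factors.
NDUFAF5: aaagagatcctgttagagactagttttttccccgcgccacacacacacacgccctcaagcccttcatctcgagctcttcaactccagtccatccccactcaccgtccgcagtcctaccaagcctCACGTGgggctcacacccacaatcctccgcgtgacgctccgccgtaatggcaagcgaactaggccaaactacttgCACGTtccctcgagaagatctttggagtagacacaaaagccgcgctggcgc
NDUFAF1: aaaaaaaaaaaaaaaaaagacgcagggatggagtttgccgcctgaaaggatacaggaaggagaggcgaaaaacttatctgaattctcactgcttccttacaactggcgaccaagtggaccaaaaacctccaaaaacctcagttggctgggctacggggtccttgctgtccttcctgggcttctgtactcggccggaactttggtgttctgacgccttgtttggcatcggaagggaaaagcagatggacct
NDUFAF4: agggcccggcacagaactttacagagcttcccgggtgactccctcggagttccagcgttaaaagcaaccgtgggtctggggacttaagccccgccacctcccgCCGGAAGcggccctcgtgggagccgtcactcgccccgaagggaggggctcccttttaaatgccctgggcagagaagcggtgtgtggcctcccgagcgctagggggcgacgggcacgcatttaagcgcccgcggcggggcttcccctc
NDUFAF5 held ACGTG letters at a pair of places, the first of them, CACGTG, reading the same on both strands. NDUFAF4 held 1 ETS match and NDUFAF1 held no match to any of the 5 motifs. The promoter of NDUFAF8, which fell in both cultures and is not shown, held no match either. Of the 44 members 38 had a promoter in the RefSeq table, and NRF1 letters were found in 10.5% of these, against 9.20% of the 13114 promoters of tested genes. The shares were 15.8% and 13.9% for ETS letters, 10.5% and 3.82% for YY1, 2.63% and 1.53% for ATF4 with C/EBP, and 23.7% and 22.2% for ACGTG. A match is a description of letters only, and binding was not measured.

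NDUFAF8 (Entrez gene 284184) is the partner protein that stabilises NDUFAF5. Its values were 512, 706, 635 and 597 in MPP 3D and 739, 829, 867 and 689 in MPP 2D, against 781, 762, 770.5 and 946 in untreated 3D and 939, 1004, 887 and 999 in untreated 2D. The groups with and without MPP did not overlap in either culture. NDUFAF8 fell in 3D (limma, log2 -0.41, SE 0.108, adjusted p = 0.00465), a call kept under every alternative, and in 2D (limma, log2 -0.30, SE 0.108, adjusted p = 0.0364). The 2D call was lost with equal library totals (limma, adjusted p = 0.183), with quantile normalisation (0.0622), or on leaving out any 1 of MPP 2D replicates 1 and 4 and untreated 2D replicates 1, 2 and 4 (0.0606 to 0.116). NDUFAF8 was also lower in MPP 3D than in MPP 2D (limma, log2 -0.35, SE 0.108, adjusted p = 0.0124), a call lost without MPP 3D replicate 1 (0.0540) or MPP 2D replicate 3 (0.0516). Between untreated 3D and 2D its log2 change was -0.24 without a call (limma, adjusted p = 0.0777). The difference of the MPP effects was not called (limma, adjusted p = 0.675). The mRNAs of NDUFAF8 and NDUFAF5 moved in opposite directions with MPP.

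NDUFAF4 and NDUFAF3 bind each other and act together in building the Q module. NDUFAF4 (Entrez gene 29078) had 406, 353, 369 and 324 in MPP 3D and 367, 292, 314 and 304 in MPP 2D, against 345, 398, 505 and 436 in untreated 3D and 458, 491, 492 and 504 in untreated 2D. In 2D all MPP libraries were below all untreated ones, and in 3D the groups overlapped. NDUFAF4 fell in 2D (limma, log2 -0.61, SE 0.125, adjusted p = 6.14e-04) under every alternative, and in 3D it was not called (limma, log2 -0.20, SE 0.125, adjusted p = 0.217). The difference between cultures was not called either (limma, log2 0.41, 95% interval 0.040 to 0.77, adjusted p = 0.131).

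NDUFAF3 (Entrez gene 25915) had 2796, 3484, 3586 and 3540.4 in MPP 3D and 3542, 3445, 3439.7 and 3311 in MPP 2D, against 3079, 3416, 3231 and 3960.0 in untreated 3D and 3198, 2886, 2921 and 2599.7 in untreated 2D. All MPP 2D libraries were above all untreated 2D libraries, and MPP 3D replicate 1 lay below the rest of its group. NDUFAF3 rose with MPP in 2D (limma, log2 0.25, SE 0.0875, adjusted p = 0.0326) and was higher in untreated 3D than in untreated 2D (limma, log2 0.24, SE 0.0875, adjusted p = 0.0322). The MPP call was lost with equal nuclear totals (limma, adjusted p = 0.0791) or on leaving out any 1 of MPP 2D replicates 1, 2 and 3 and untreated 2D replicates 2, 3 and 4 (0.0558 to 0.118). The culture call was lost with equal nuclear totals (0.179), with quantile normalisation (0.0649), or on leaving out any 1 of untreated 3D replicates 2 and 4 and untreated 2D replicates 2, 3 and 4 (0.0534 to 0.126). With MPP in 3D NDUFAF3 was not called (limma, log2 -0.030, adjusted p = 0.820), nor was the difference of effects (limma, log2 -0.28, adjusted p = 0.143). Part of NDUFAF3 overlaps the protein-coding gene DALRD3, whose reads could be shared.

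The other assembly factors were called in no comparison. NDUFAF2, a paralog of the subunit NDUFA12 that acts late in assembly, had 391, 519, 367 and 386 in MPP 3D and 350.5, 391, 402 and 423 in MPP 2D, against 392, 391, 354 and 440.0 in untreated 3D and 391, 294, 427 and 434 in untreated 2D. NDUFAF6, needed early in assembly, had 398, 337, 365 and 398 in MPP 3D and 423, 496, 366 and 387 in MPP 2D, against 339.9, 291, 351 and 252 in untreated 3D and 347, 347, 342 and 369 in untreated 2D. All groups of both genes overlapped with their untreated counterparts, and the MPP changes of NDUFAF6 were 0.29 in 3D and 0.24 in 2D on the log2 scale (limma, adjusted p = 0.0872 and 0.154). NDUFAF7, a mitochondrial arginine methyltransferase, had 804, 699, 620.4 and 690.2 in MPP 3D and 839.9, 760.0, 777 and 694 in MPP 2D, against 913, 781, 832 and 668 in untreated 3D and 659, 807, 797 and 710.3 in untreated 2D. Its groups overlapped in every comparison.

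**Figure D3:**
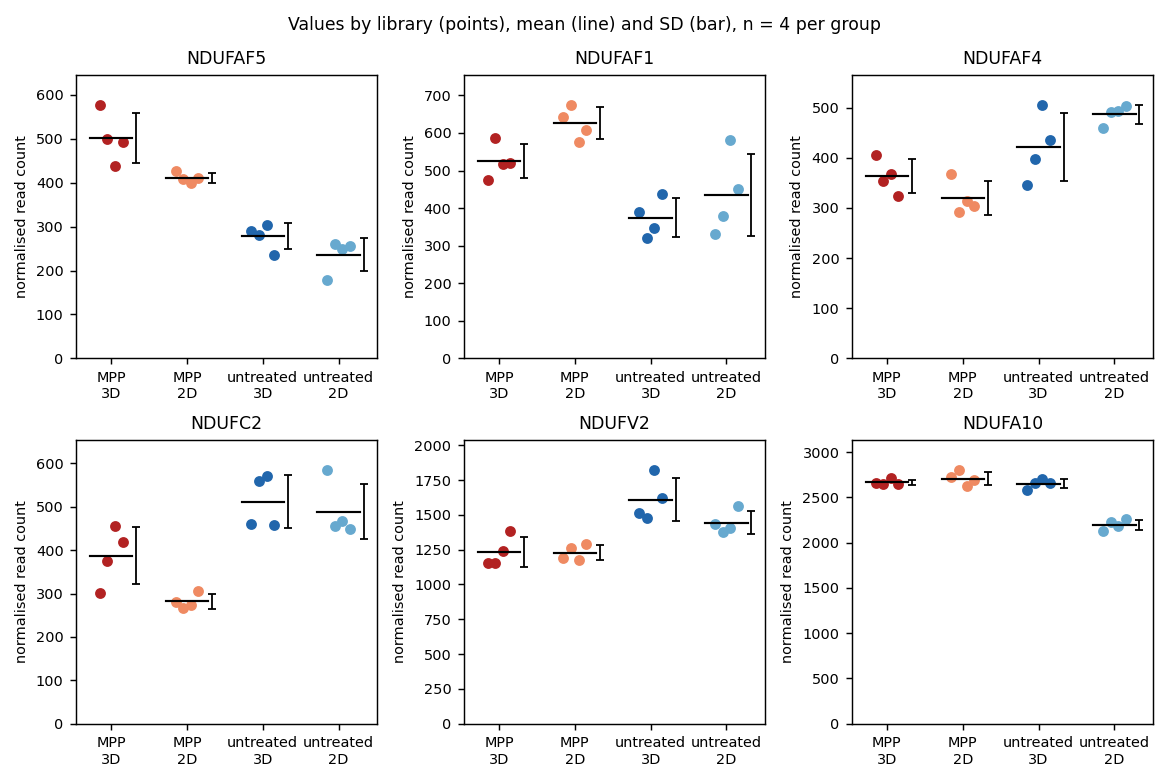
Points are normalised counts in single libraries on a linear axis from 0, lines are group means and bars SDs (n = 4), with MPP 3D, MPP 2D, untreated 3D and untreated 2D from left to right. NDUFAF5 means were 502 and 411 in MPP 3D and MPP 2D, against 278 and 236 in untreated 3D and 2D, and NDUFA10 was low in untreated 2D alone, at 2201 against 2653 to 2709.

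Among the core subunits, NDUFV2 fell with MPP in both cultures, and in 3D NDUFV1 rose and NDUFS3 fell. NDUFV2 and NDUFV1 are the NADH-side core subunits, NDUFV1 holding the flavin and NDUFV2 an iron-sulfur cluster. NDUFV2 (Entrez gene 4729) had 1155, 1158, 1241 and 1384 in MPP 3D and 1192, 1260.4, 1173 and 1291 in MPP 2D, against 1512, 1477, 1820.2 and 1618 in untreated 3D and 1437, 1373, 1404 and 1562 in untreated 2D. Within each culture all MPP libraries lay below all untreated libraries. NDUFV2 fell in 3D (limma, log2 -0.38, SE 0.0837, adjusted p = 0.00117), a call kept under every alternative, and in 2D (limma, log2 -0.23, SE 0.0837, adjusted p = 0.0354). The 2D call was lost with equal library totals (limma, adjusted p = 0.241), with quantile normalisation (0.0734), or on leaving out any 1 of MPP 2D replicates 1, 2 and 3 and untreated 2D replicates 1, 3 and 4 (0.0516 to 0.113). Counts of NDUFV2 could include its antisense gene NDUFV2-AS1, since counting by strand is not stated.

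NDUFV1 (Entrez gene 4723) had 2668, 3248, 2584 and 2555 in MPP 3D and 2575, 2989.7, 2892 and 2582 in MPP 2D, against 2445, 2135, 1939.5 and 2610.1 in untreated 3D and 2687, 2692, 2679 and 2832 in untreated 2D. All untreated 3D libraries were below all untreated 2D libraries, and the highest of them, replicate 4, reached above MPP 3D replicates 3 and 4. NDUFV1 was lower in untreated 3D than in untreated 2D (limma, log2 -0.26, SE 0.0913, adjusted p = 0.0220) and rose with MPP in 3D (limma, log2 0.28, SE 0.0913, adjusted p = 0.0210). The MPP call was lost when only the 2 groups compared were fitted (limma, adjusted p = 0.0743) or on leaving out any 1 of MPP 3D replicate 2 and untreated 3D replicates 2 and 3 (0.0617 to 0.0985). The culture call was lost on leaving out any 1 of untreated 3D replicates 2 and 3 and untreated 2D replicate 4 (0.0578 to 0.0892). With MPP in 2D NDUFV1 was not called (limma, log2 0.017, adjusted p = 0.908), nor was the difference of effects (limma, log2 0.26, adjusted p = 0.188).

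NDUFS3 (Entrez gene 4722), a core subunit of the Q module, had 637, 757, 477 and 761 in MPP 3D and 671, 730.3, 683 and 641 in MPP 2D, against 699.9, 819.5, 862 and 1007 in untreated 3D and 831, 726, 785 and 819 in untreated 2D. MPP 3D replicate 3 was the lowest of all libraries and untreated 3D replicate 4 the highest. NDUFS3 fell with MPP in 3D (limma, log2 -0.38, SE 0.129, adjusted p = 0.0275), but not with equal library totals (limma, adjusted p = 0.0948), with equal nuclear totals (0.0548), with only the groups compared (0.0904), or on leaving out any 1 of MPP 3D replicates 1 and 3 and untreated 3D replicates 3 and 4 (0.0504 to 0.129). With MPP in 2D NDUFS3 was not called (limma, log2 -0.21, adjusted p = 0.212), nor was the difference of effects (limma, log2 -0.16, adjusted p = 0.617). NDUFS8 (Entrez gene 4728), which carries iron-sulfur clusters in the Q module, had 2014, 1997, 2093 and 2212 in MPP 3D and 1798, 1919, 1785 and 1791 in MPP 2D, against 2002, 1907, 2262 and 2272 in untreated 3D and 2014, 2164, 1987 and 2044 in untreated 2D. The 4 MPP 2D libraries were below all 4 untreated 2D libraries without a call (limma, adjusted p = 0.0688). NDUFS8 was higher in MPP 3D than in MPP 2D (limma, log2 0.19, SE 0.0715, adjusted p = 0.0405), a call lost with a replicate block (limma, adjusted p = 0.0538) or on leaving out any 1 of MPP 3D replicates 3 and 4 and MPP 2D replicates 1, 3 and 4 (0.0687 to 0.124). The difference of the MPP effects on NDUFS8 was not called (limma, log2 0.15, adjusted p = 0.355). The core subunits NDUFS1, the largest, and NDUFS7 were called in no comparison, with log2 changes of -0.19 to 0.21 between groups.

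Among the 28 accessory subunits, 3 rose and 5 fell in MPP 2D relative to untreated 2D, and 1 rose and 7 fell in 3D. The share called was 28.6% in each culture, below that of all genes (34.5% in 2D and 34.6% in 3D). NDUFC2 (Entrez gene 4718), of the proximal membrane arm, had the lowest log2 change of all members in 2D, and its values were 301, 376, 455 and 419 in MPP 3D and 281, 268, 273 and 306 in MPP 2D, against 459, 560.1, 571 and 458 in untreated 3D and 584, 455, 468 and 448 in untreated 2D. MPP and untreated libraries did not overlap in either culture, and MPP 2D was the lowest group. NDUFC2 fell in 2D (limma, log2 -0.79, SE 0.135, adjusted p = 1.01e-04) and in 3D (limma, log2 -0.41, SE 0.135, adjusted p = 0.0212), and was higher in MPP 3D than in MPP 2D (limma, log2 0.44, SE 0.135, adjusted p = 0.0122). The 2D call and the call between MPP cultures were kept under every alternative. The difference of the MPP effects on NDUFC2 was not called (limma, log2 0.37, 95% interval -0.020 to 0.77, adjusted p = 0.203). The 3D call was lost with equal library totals (limma, adjusted p = 0.0756), with only the groups compared (0.0603), or on leaving out any 1 of MPP 3D replicate 1 and untreated 3D replicates 2 and 3 (0.0612 to 0.0918). NDUFC2 overlaps the readthrough gene NDUFC2-KCTD14, with which reads could be split.

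Subunits of the distal membrane arm that fell in both cultures were NDUFB10, NDUFB11 and NDUFB6. NDUFB10 (Entrez gene 4716) had 1905, 2146, 1997 and 2313 in MPP 3D and 1652, 1809, 1911 and 1567 in MPP 2D, against 2366, 2317, 2849 and 2636 in untreated 3D and 2283, 2128, 2190.3 and 2246 in untreated 2D. MPP and untreated libraries did not overlap in either culture. NDUFB10 fell in 2D (limma, log2 -0.35, SE 0.0830, adjusted p = 0.00210) under every alternative, and in 3D (limma, log2 -0.28, SE 0.0830, adjusted p = 0.0112) under every alternative except equal library totals (limma, adjusted p = 0.0941) and a minimum change of 0.32 on the log2 scale. NDUFB10 was higher in MPP 3D than in MPP 2D (limma, log2 0.27, SE 0.0830, adjusted p = 0.0132), a call lost without MPP 3D replicate 4 (0.0593) or MPP 2D replicate 4 (0.0540). All untreated 3D libraries were also above all untreated 2D libraries, without a call (limma, log2 0.20, adjusted p = 0.0581). The difference of the MPP effects on NDUFB10 was not called (limma, log2 0.073, adjusted p = 0.740). NDUFB11 fell by 0.29 in 3D and 0.33 in 2D on the log2 scale (limma, adjusted p = 0.0152 and 0.00698), and NDUFB6 fell by 0.36 and 0.34 (0.0323 and 0.0393). The NDUFB11 calls were lost with equal library totals (0.101 in 3D and 0.0601 in 2D), and that in 3D also with only the groups compared (0.0630), without MPP 3D replicate 1 (0.0584) or without untreated 3D replicate 3 (0.0670). The NDUFB6 call in 2D was lost without each of the 8 2D libraries in turn (0.0539 to 0.118), with quantile normalisation (0.0628) and with equal library totals (0.155). In 3D it was lost on leaving out any 1 of MPP 3D replicate 1 and untreated 3D replicates 2 and 4 (0.0833 to 0.152), with either rescaling of totals (0.118 and 0.0732) or with only the groups compared (0.0996).

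Other accessory subunits were called with MPP in 3D alone. NDUFB4 (Entrez gene 4710), of the distal arm, was the subunit with the highest change there, at 1817, 1921, 1725 and 1919 in MPP 3D and 1605, 1842, 1621 and 1499 in MPP 2D, against 1316, 1290.4, 1511 and 1257 in untreated 3D and 1602, 1406, 1575 and 1391 in untreated 2D. All MPP 3D libraries were above all untreated 3D libraries, and it rose (limma, log2 0.46, SE 0.0829, adjusted p = 1.66e-04). NDUFB7 (Entrez gene 4713), a subunit of the distal arm on the intermembrane side, had 1118, 1333, 1437 and 1415 in MPP 3D and 1307, 1580.2, 1423 and 1379 in MPP 2D, against 1608, 1715, 1861 and 2146 in untreated 3D and 1653, 1719.8, 1347 and 1598 in untreated 2D. In 3D the MPP libraries were the lower ones with no overlap, and NDUFB7 fell (limma, log2 -0.46, SE 0.102, adjusted p = 0.00114). NDUFV3 (Entrez gene 4731), of the N module, had 511, 661, 533 and 569.7 in MPP 3D and 563, 573, 600.2 and 559 in MPP 2D, against 717, 855, 744 and 767 in untreated 3D and 648, 700.1, 706 and 584 in untreated 2D. The 3D groups again did not overlap, and NDUFV3 fell (limma, log2 -0.44, SE 0.101, adjusted p = 0.00164). These 3 calls were kept under every alternative. In 2D none of the 3 was called, at log2 changes of 0.14, -0.15 and -0.20, and the difference of effects was not called for any of them (limma, adjusted p = 0.0661, 0.153 and 0.282). NDUFB4 has 12 named pseudogenes, with which its reads could be shared.

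Accessory subunits whose MPP change was called in 2D alone were NDUFA5, NDUFA10, NDUFS4 and NDUFA7. NDUFA5 (Entrez gene 4698), of the Q module, had 2743, 2652, 2913 and 2735 in MPP 3D and 2458, 2407, 2514 and 2359.9 in MPP 2D, against 2819.8, 3403, 3312 and 2913 in untreated 3D and 3135, 3166, 3247 and 3198 in untreated 2D. All MPP 2D libraries were below all other libraries, and NDUFA5 fell in 2D (limma, log2 -0.39, SE 0.0673, adjusted p = 1.13e-04) under every alternative. In 3D its log2 change was -0.17 without a call (limma, adjusted p = 0.0561), and the difference of effects was not called (limma, adjusted p = 0.130). NDUFA5 was higher in MPP 3D than in MPP 2D (limma, log2 0.18, SE 0.0673, adjusted p = 0.0373), a call lost on leaving out any 1 of MPP 3D replicates 1, 3 and 4 and MPP 2D replicates 1, 2 and 4 (0.0536 to 0.0988). NDUFA5, like NDUFB4, has 12 named pseudogenes. NDUFA10 (Entrez gene 4705), of the proximal arm, had 2665, 2647, 2712 and 2644 in MPP 3D and 2722, 2801, 2624 and 2689.9 in MPP 2D, against 2580.1, 2659, 2709 and 2664 in untreated 3D and 2129, 2229, 2187 and 2258 in untreated 2D. The untreated 2D libraries were below all 12 others, with no overlap. NDUFA10 rose with MPP in 2D (limma, log2 0.30, SE 0.0576, adjusted p = 3.35e-04), was higher in untreated 3D than in untreated 2D (limma, log2 0.27, SE 0.0576, adjusted p = 5.71e-04), and its MPP effect differed between cultures (limma, log2 -0.29, SE 0.0814, adjusted p = 0.0164). The difference of effects was not called with equal nuclear totals (limma, adjusted p = 0.116), and none of the 3 values reached 0.32 on the log2 scale, the minimum of an alternative.

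NDUFS4 (Entrez gene 4724), an N module subunit mutated in Leigh syndrome, had 699.8, 827, 669 and 865 in MPP 3D and 892, 909, 768 and 861 in MPP 2D, against 557, 669, 758 and 761 in untreated 3D and 686, 635, 715 and 696 in untreated 2D. The 2D groups did not overlap and the 3D groups did. NDUFS4 rose in 2D (limma, log2 0.33, SE 0.110, adjusted p = 0.0256), a call lost on leaving out any 1 of MPP 2D replicates 1 and 2 and untreated 2D replicate 2 (limma, adjusted p = 0.0666 to 0.0743). NDUFA7 rose in 2D (limma, log2 0.25, SE 0.0971, adjusted p = 0.0473), a call lost with equal nuclear totals (0.10), without a filter (0.0520), or on leaving out any 1 of MPP 3D replicates 3 and 4, MPP 2D replicates 1, 2 and 4 and untreated 2D replicates 1, 2 and 4 (0.0519 to 0.137). In 3D NDUFS4 and NDUFA7 were not called, at log2 changes of 0.16 and 0.15 (limma, adjusted p = 0.280 and 0.258). The difference of effects was not called for either gene (limma, adjusted p = 0.534 and 0.669).

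The contrast of 3D with 2D asked how the culture altered these genes with and without toxin, and the summed pan-neuronal markers given above moved with it. NDUFB2 and NDUFA11 were lower in 3D in both treatments. NDUFB2 (Entrez gene 4708), of the distal arm, had 727, 1157, 831 and 1001 in MPP 3D and 1150.0, 1314, 1399.7 and 1403 in MPP 2D, against 782, 858, 714 and 1226 in untreated 3D and 1112, 1183, 1362 and 1408 in untreated 2D. Untreated 3D replicate 4 and MPP 3D replicate 2 reached into the range of the 2D libraries. NDUFB2 was lower in untreated 3D (limma, log2 -0.52, SE 0.147, adjusted p = 0.00563) and in MPP 3D (limma, log2 -0.52, SE 0.147, adjusted p = 0.00735), each against its 2D group and under every alternative, and it was called with MPP in neither culture (limma, 95% intervals -0.24 to 0.37 in 3D and -0.25 to 0.36 in 2D, adjusted p = 0.778 and 0.793). Counts of NDUFB2 could include its antisense gene NDUFB2-AS1.

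NDUFA11 (Entrez gene 126328), of the proximal arm, had 817, 1316, 1310.3 and 1208 in MPP 3D and 1706, 1532, 1645 and 1657 in MPP 2D, against 1350.2, 1483, 1287 and 1933 in untreated 3D and 1879, 1821, 2041 and 2358 in untreated 2D. MPP 3D replicate 1 was the lowest library and untreated 2D replicate 4 the highest. NDUFA11 was lower in MPP 3D than in MPP 2D (limma, log2 -0.52, SE 0.134, adjusted p = 0.00408), with no overlap and under every alternative, and in untreated 3D than in untreated 2D (limma, log2 -0.43, SE 0.134, adjusted p = 0.0116), a call lost without untreated 2D replicate 4 (0.0516). It also fell with MPP in 3D (limma, log2 -0.39, SE 0.134, adjusted p = 0.0287), except on leaving out any 1 of MPP 3D replicate 1 and untreated 3D replicates 2 and 4 (limma, adjusted p = 0.0507 to 0.141), with either rescaling of totals (0.0996 and 0.0655) or with only the groups compared (0.0832). In 2D all MPP libraries were below all untreated ones without a call (limma, log2 -0.30, adjusted p = 0.0858). The difference of effects was not called (limma, adjusted p = 0.823).

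NDUFB5 (Entrez gene 4711), of the distal arm, had 1215, 1410.2, 1488 and 1599 in MPP 3D and 1422, 1358, 1324 and 1494 in MPP 2D, against 1539, 1616, 1729 and 1926 in untreated 3D and 1024, 1330.2, 1491 and 1430.0 in untreated 2D. The untreated 3D libraries were above all untreated 2D libraries, and NDUFB5 was higher there (limma, log2 0.38, SE 0.108, adjusted p = 0.00645) under every alternative. NDUFB8 (Entrez gene 4714), also of the distal arm, had 1288, 1824, 1488 and 1677 in MPP 3D and 1745, 2015, 1902 and 1811 in MPP 2D, against 1619, 1897, 1645 and 2209 in untreated 3D and 1949.9, 1966, 1939 and 2102 in untreated 2D. MPP 3D replicate 1 was the lowest library. NDUFB8 was lower in MPP 3D than in MPP 2D (limma, log2 -0.26, SE 0.103, adjusted p = 0.0476), a call that was lost in 16 of 28 alternatives, among them edgeR (0.0605) and DESeq2 (0.0550). Single libraries whose removal ended it were MPP 3D replicates 1 and 3, MPP 2D replicates 2, 3 and 4, untreated 3D replicate 2 and each untreated 2D library (0.0540 to 0.193).

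The 19 members called in none of the 5 comparisons were 13 accessory subunits, 2 core subunits, 3 assembly factors and NDUFA4. Their log2 changes lay between -0.39 and 0.31, differences of the MPP effects included. The accessory subunits were NDUFA2, NDUFA12 and NDUFS6 of the N module, NDUFA9 of the Q module, NDUFA1, NDUFA8, NDUFA13, NDUFC1 and NDUFS5 of the proximal arm, NDUFB1, NDUFB3 and NDUFB9 of the distal arm, and NDUFAB1, which sits in both parts of the complex. NDUFB1 had the lowest of these changes, -0.39 with MPP in 2D (limma, 95% interval -0.81 to 0.038, adjusted p = 0.151). For NDUFS5 all MPP 2D libraries were below all untreated 2D libraries without a call (limma, log2 -0.16, adjusted p = 0.123).

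Subunits and assembly factors differed in their medians with MPP. In 2D the median log2 change was -0.097 for the 35 subunits and 0.14 for the 8 assembly factors, beside 0.020 for all genes tested. In 3D it was -0.12 for subunits and 0.018 for assembly factors, beside 0.0033 for all genes. By module, the subunit medians in 3D were 0.014 for the N module, 0.0069 for the Q module, -0.18 for the proximal arm and -0.26 for the distal arm, and in 2D they were -0.053, -0.13, -0.14 and -0.15. Without MPP 3D replicate 1 the 3D medians were 0.075, 0.010, -0.074 and -0.18 in the same order, and without untreated 3D replicate 4 they were 0.077, 0.042, -0.047 and -0.19. The proximal arm median also moved by over 1.5 times without MPP 3D replicate 2 (-0.32) or untreated 3D replicate 3 (-0.29), so its size turned on single libraries. The N and Q module medians changed sign without some of the other 3D libraries, with ranges of -0.033 to 0.095 and -0.022 to 0.042. Between untreated 3D and 2D the medians were 0.011 for subunits and -0.079 for assembly factors, and between MPP 3D and MPP 2D -0.0016 and -0.086. With libraries scaled to equal totals, all genes moved to a median of 0.12 in 2D and 0.098 in 3D, and the subunit median moved to 0.0075 and -0.030. The calls were then 5 higher and 3 lower among subunits in 2D, against 4 and 6, and 3 and 3 in 3D, against 2 and 9. With equal nuclear totals, all genes moved to a median of -0.077 between untreated 3D and 2D, with 38.3% of calls higher, and to 0.085 in the difference of the MPP effects, with 66.9% higher. Under that scaling 2 subunits were higher and 6 lower between untreated 3D and 2D, and 3 subunits and 1 assembly factor were called in the difference of the MPP effects, the subunits all higher. The subunit medians were then -0.077 and 0.075, close to those of all genes. Without MPP 3D replicate 1 the subunit median in 3D was -0.072 with 6 subunits called, and without untreated 3D replicate 4 it was -0.044 with 10 called, against 11 with all libraries. Without untreated 3D replicate 2 the count was 7.

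Taken library by library, the median deviation of assembly factors minus that of subunits was 0.26, -0.027, 0.051 and -0.0064 in MPP 3D and 0.23, 0.076, 0.12 and 0.12 in MPP 2D, against 0.0027, -0.056, -0.093 and -0.18 in untreated 3D and -0.067, -0.14, 0.055 and -0.14 in untreated 2D (log2 scale). In 2D the MPP libraries all lay above the untreated ones, and in 3D the ranges overlapped, with the value of MPP 3D replicate 1 the highest. As the members of a class share each library, these values are a description.

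**Figure D4:**
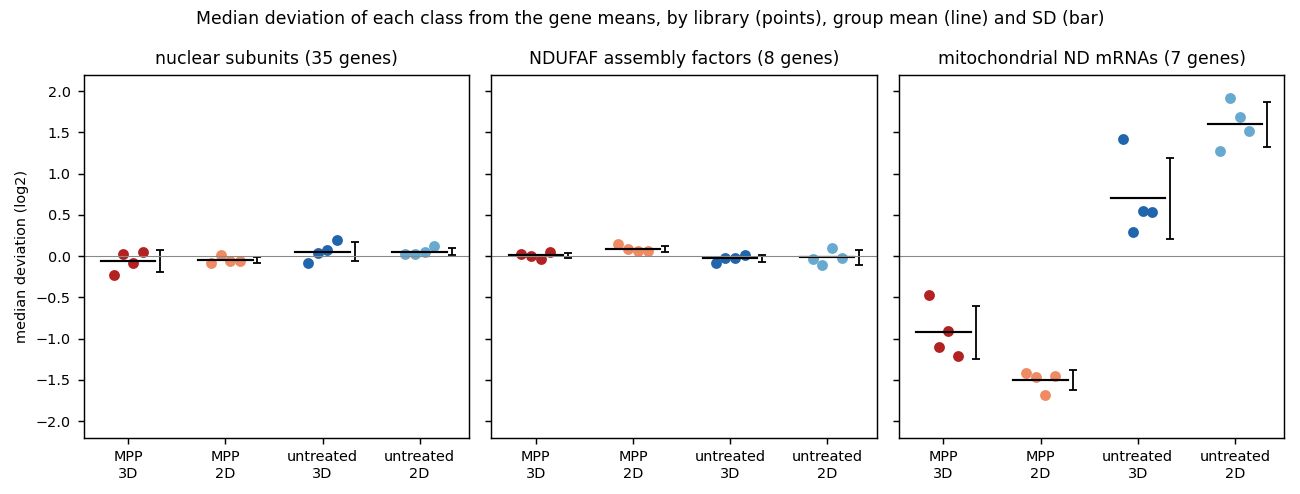
Points give, for 1 library each, the median over a class of log2(normalised count + 1) minus the gene's mean over 16 libraries; lines are group means and bars SDs (n = 4), with MPP groups left of untreated groups. The 35 nuclear subunits and 8 assembly factors stayed between -0.23 and 0.19, whereas the 7 mitochondrially encoded ND mRNAs spanned -1.69 to 1.91.

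The mitochondrially encoded subunits of the same complex moved on another scale. All 7 ND mRNAs fell with MPP in 3D and in 2D, with median log2 changes of -1.48 and -3.08, and all 7 were lower in untreated 3D than in untreated 2D, with a median of -1.04. ND1, a core subunit of the proximal arm, averaged 59440.0 ± 9405 in MPP 3D and 28909.9 ± 2182 in MPP 2D, against 153530.0 ± 57307 in untreated 3D and 246124 ± 40273 in untreated 2D (SD, n = 4 each). Its fall was larger in 2D (limma, log2 -3.08, SE 0.164, adjusted p = 3.29e-12) than in 3D (limma, log2 -1.32, SE 0.164, adjusted p = 1.74e-06), and the effects of MPP differed between cultures for all 7 ND mRNAs, for ND1 by 1.76 on the log2 scale (limma, adjusted p = 8.90e-06). Untreated 3D replicate 1 had the highest ND values of its group, with a median deviation of 1.42 against 0.29 to 0.54 in the other 3 libraries. The 7 calls with MPP in each culture and in the difference held under every setting tried, the median in 2D lying between -3.17 and -2.61, and between untreated cultures 6 were called with quantile normalisation. ND3 had the lowest log2 changes of the 7, -4.91 in 3D and -5.57 in 2D, and the fall in 2D was larger here too (limma, log2 0.66 for the difference, adjusted p = 0.0152). Every nuclear member changed by less than any ND mRNA with MPP in either culture. The libraries were poly-A-selected and counting by strand is not stated, and the part of either in the ND counts was not tested.

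Complex I is also assembled by factors that do not carry the NDUFAF name. Of 13 such factors, 3 rose and 1 fell in MPP 3D relative to untreated 3D, and 3 rose and 2 fell in 2D. Of all genes, 17.0% were called higher and 17.6% lower in 3D, and 17.7% and 16.9% in 2D, so these counts were near the background. NUBPL, which delivers iron-sulfur clusters to complex I, rose in 3D (limma, log2 0.35, SE 0.110, adjusted p = 0.0173) and in 2D (limma, log2 0.46, SE 0.110, adjusted p = 0.00233), and averaged 622 ± 41.5 in MPP 3D and 743 ± 67.2 in MPP 2D, against 492 ± 72.9 in untreated 3D and 538 ± 38.3 in untreated 2D. ECSIT, which works in the same complex as NDUFAF1, rose by 0.54 in 3D and 0.26 in 2D on the log2 scale (limma, adjusted p = 1.74e-04 and 0.0440). TMEM70, a membrane arm and ATP synthase assembly protein, fell by 0.49 and 0.56 (0.00356 and 0.00135). FOXRED1 rose in 3D by 0.37, and in 2D DMAC2 rose by 0.24 and AIFM1 fell by 0.38. The median of these 13 log2 changes was 0.013 in 3D and -0.058 in 2D. Between untreated 3D and 2D, 2 of the 13 were higher and 2 lower, beside 23.2% and 23.0% of all genes. Between MPP 3D and MPP 2D 5 were higher and 0 lower, beside 19.0% and 19.9%.

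Of 9 regulators of nuclear respiratory genes, 0 were called higher and 2 lower with MPP in each culture. Of all genes, 17.0% were called higher and 17.6% lower in 3D, and 17.7% and 16.9% in 2D. In lists this short such counts do not differ clearly from those shares, which also stand beside the lists that follow. GABPB1 and YY1 fell in 3D, by 0.36 and 0.26 on the log2 scale (limma, adjusted p = 0.0495 and 0.0122). In 2D the orphan receptor ESRRA fell by 0.72 and TFAM, which packages and transcribes mitochondrial DNA, fell by 0.41 (2.83e-04 and 0.00404). Of 12 genes of iron-sulfur cluster and flavin supply, 3 rose and 3 fell in 3D and 0 rose and 2 fell in 2D, among them the cluster carriers ISCA1 and GLRX5, which fell in both cultures. ISCA1 fell by 0.43 in 3D and 0.60 in 2D, and GLRX5 fell by 0.44 and 0.30. Between untreated 3D and 2D, 4 regulators were higher and 1 lower, and 4 supply genes were higher and 2 lower, beside 23.2% and 23.0% of all genes. Of 7 proteases and import genes that act on subunits, 1 rose in 3D (the protease subunit CLPP, 0.30) and 1 in 2D (the matrix protease LONP1, 0.24). LONP1 averaged 8365 ± 408 in MPP 3D and 6026 ± 283 in MPP 2D, against 8856 ± 725 in untreated 3D and 5110.4 ± 146 in untreated 2D.

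NDUFA4 (Entrez gene 4697), the complex IV subunit that keeps a complex I name, had 1610.0, 2443, 2255 and 2765 in MPP 3D and 2608, 2529.7, 2557 and 3275 in MPP 2D, against 1842, 1963, 1885 and 2862 in untreated 3D and 1929, 2117, 2471 and 3163 in untreated 2D. All groups overlapped, and it was called in no comparison (limma, adjusted p = 0.731 with MPP in 3D and 0.364 in 2D). Its paralog NDUFA4L2, a hypoxia-induced gene that does not fall under the rule of selection, had 683, 525, 367 and 538 in MPP 3D and 131, 111, 105 and 92.4 in MPP 2D, against 4259, 4870.3, 4668 and 4898 in untreated 3D and 50.8, 88.4, 91.1 and 110.1 in untreated 2D. The untreated 3D libraries were far above all others, and the MPP 3D libraries came next. NDUFA4L2 was higher in untreated 3D than in untreated 2D (limma, log2 5.81, SE 0.193, adjusted p = 1.91e-16), fell with MPP in 3D (limma, log2 -3.18, SE 0.193, adjusted p = 1.92e-11) and was higher in MPP 3D than in MPP 2D (limma, log2 2.23, SE 0.193, adjusted p = 5.82e-09). With MPP in 2D it was not called (limma, log2 0.41, SE 0.193, adjusted p = 0.110), and the effects differed (limma, log2 -3.58, SE 0.274, adjusted p = 3.34e-09).

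**Figure D5:**
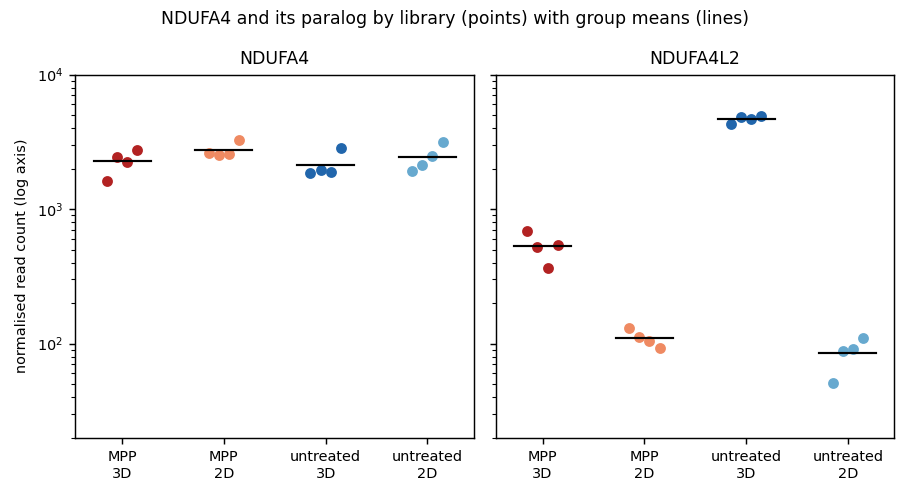
Points are normalised counts in single libraries on a shared log axis and lines are group means, with MPP 3D, MPP 2D, untreated 3D and untreated 2D from left to right. NDUFA4 group means lay between 2138 and 2742, whereas NDUFA4L2 means were 528 in MPP 3D and 110 in MPP 2D, against 4674 in untreated 3D and 85.1 in untreated 2D.

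The counting of these genes has limits that were not tested. In the RefSeq annotation 18 of 44 members overlap another gene, 11 of them a protein-coding gene, and 20 have named pseudogenes, so that reads could be shared with other loci.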

How the data were processed

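Total RNA of 16 libraries was measured by RNA-seq. The deposited table holds, per gene, read counts that the authors divided by 1 size factor per library, a signal on the scale of normalised counts; CASAVA 1.8.2, FastQC, STAR, featureCounts, DESeq2 and build GRCh38.p13 are named per the submitters' processing notes. Their settings, the annotation and the use of strand: not given in the sources used here. Poly-A selection preceded library construction, per the labels' protocols. All genes of the deposited table had at least 11 reads over all libraries. From the deposited signal whole reads were recovered (100.0% of values whole within 0.01), which gave the depth of each library.

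Genes with a value of at least 10 in at least 4 libraries were kept (16984 genes), and log2(value + 1) was fitted for all 16 libraries and 4 groups together with limma 3.58.1 (lmFit, eBayes with trend) in R 4.3.3. Calls were made where the p adjusted by Benjamini and Hochberg over all genes tested was under 0.05, and the procedure was tested on simulated data. Fold changes on this scale understate those of low genes. Alternatives were tests of the recovered reads by edgeR's quasi-likelihood method (4.0.16) or by DESeq2 (1.42.0), other scalings, pseudocounts and filters, a replicate block, fits of only the groups compared, and leaving out each library. With MPP in 3D and 2D edgeR called 5815 and 5876 genes, DESeq2 6069 and 6193 and limma 5879 and 5866.

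"Equal library totals" scales all reads to 1 total, and "equal nuclear totals" all reads other than the mitochondrially encoded ones. No pair of libraries of a group agreed within sampling noise (24 pairs, lowest chi-square per degree of freedom 6.58). The members and the other gene lists were chosen with earlier results of these data known. Values in every library are given for the 4 called members with the highest and the 4 with the lowest change in each of the 5 comparisons, for called core subunits (1 member, counted in all totals, is not reported here by name), for the assembly factors and for NDUFA4. Overlaps, pseudogenes and promoters came from RefSeq tables. Tables and figures used python 3.11.15 with pandas 2.3.3, numpy 2.4.6 and matplotlib 3.10.9. Normalised counts are not divided by gene length, so levels are not compared between genes.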

Additional observations from a re-analysis of the deposited data

Results flagged for a closer look

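In 180 groups of 4 libraries (43 members and the medians of the subunits and of the assembly factors), 16 had a library whose distance from the nearest other was large against the range of its group by Dixon's criterion, and chance marks about 1 in 20 groups. Untreated 3D replicate 4 was such a library for NDUFA13 (6272 normalised counts), NDUFA4 (2862), NDUFAF8 (946) and NDUFB9 (2058). Untreated 2D replicate 4 was one for NDUFAB1 (1705), NDUFB8 (2102) and NDUFV1 (2832). Untreated 2D replicate 1 was one for NDUFAF5 (179) and NDUFC2 (584), and untreated 2D replicate 3 for NDUFB6 (1002).

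In the MPP groups, NDUFAF2 (519) and NDUFV1 (3248) stood apart in MPP 3D replicate 2 and NDUFAF3 (2796) in MPP 3D replicate 1. In MPP 2D these were NDUFA4 (3275) in replicate 4, NDUFB1 (269) in replicate 3 and NDUFS8 (1919) in replicate 2.

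The effect of MPP differed between the cultures for NDUFA10 (-0.29 on the log2 scale, 3D effect minus 2D effect), by the limma test of the difference itself.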

How the results depend on the processing

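Over 28 alternatives, the 46 calls on single members kept their direction throughout, and 147 of 1286 values no longer passed the threshold. Every call with a log2 change below 0.32 in size was lost under the minimum of that size, by construction. No call was kept in every alternative for the difference of the MPP effects, and 7 of 15 were kept with MPP in 2D, 7 of 14 with MPP in 3D, 2 of 6 between untreated 3D and 2D and 3 of 9 between MPP 3D and MPP 2D.

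With equal library totals, medians with MPP in 2D were 0.0075 for subunits and 0.25 for assembly factors, and in 3D -0.030 and 0.11, with 6 subunits called in 3D. Fitting only the groups compared called 5 subunits in 3D. With equal nuclear totals, the assembly factor median was 0.077 with MPP in 3D. Between untreated 3D and 2D that scaling gave 8 subunits and 2 assembly factors called, with medians of -0.077 and -0.17, beside -0.077 for all genes. For the difference of the MPP effects it gave 1 assembly factor called, with medians of 0.075 for subunits and 0.093 for assembly factors, beside 0.085 for all genes. Quantile normalisation called 0 assembly factors between untreated 3D and 2D and 1 subunit for the difference of effects. A minimum change of 0.32 on the log2 scale left 3 assembly factors with MPP in 2D, 3 subunits and 0 assembly factors between untreated 3D and 2D, 3 subunits between MPP 3D and MPP 2D and 0 subunits for the difference. The cause of these shifts was not tested beyond the construction of each alternative.

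Leaving out 1 library at a time gave 6 to 11 subunits called with MPP in 2D, 6 to 16 with MPP in 3D, 3 to 9 between untreated 3D and 2D, 4 to 8 between MPP 3D and MPP 2D and 1 to 3 for the difference. For assembly factors the counts were 3 to 5, 3 to 4, 0 to 2, 0 to 1 and 0 to 1 in the same order. Subunit medians were -0.14 to -0.097, -0.18 to -0.044, -0.038 to 0.074, -0.073 to 0.048 and -0.091 to 0.073, and assembly factor medians 0.10 to 0.18, -0.048 to 0.082, -0.15 to 0.022, -0.12 to -0.054 and -0.094 to 0.039. For all genes called the counts were 4771 to 6293, 5247 to 5858, 7017 to 7989, 5683 to 6969 and 2142 to 2912. Counts moved by over 1.5 times without MPP 2D replicates 1 or 2 (6 subunits with MPP in 2D), without MPP 2D replicate 1 or untreated 2D replicates 2 or 4 (3 assembly factors), without MPP 3D replicate 1 (6 subunits with MPP in 3D) and without untreated 3D replicate 2 (7). Between untreated cultures, 3 subunits were called when untreated 2D replicate 4 was left out and 9 when untreated 3D replicate 1 was. Between MPP 3D and MPP 2D, 4 subunits were called without MPP 2D replicate 4 and 5 without MPP 3D replicates 3 or 4. Counts of 1 or 0 calls also turned on single libraries.

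Replicate numbers did not pair the samples: in 24 pairs the correlation of deviations was -0.11 to 0.090, and a library correlated best with its own number in 12 of 48 comparisons with another group. With a replicate block, subunits called were 10 with MPP in 2D, 13 with MPP in 3D, 6 between untreated cultures, 7 between MPP cultures and 2 for the difference, and assembly factors 5, 3, 1, 1 and 0. The block ended 1 member call, NDUFS8 between MPP 3D and MPP 2D (limma, adjusted p = 0.0538). At 4 libraries a group, the median standard error of a member's log2 change was 0.11 between groups. For the difference of the MPP effects it was 0.15. Changes near these sizes were therefore not detectable.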
